A study of Homo sapiens with 12 samples.

Results

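The genes described here encode the core kinases and adaptors of the Hippo pathway and 3 upstream kinases: STK3, STK4, SAV1, LATS1, LATS2, MOB1A, MOB1B, TAOK1, TAOK3 and MAP4K4. They were chosen by symbol, matched to the Ensembl identifiers of the deposited count table, and all 10 were found among its 62656 genes and were high enough to be tested. RNA was sequenced from a human podocyte line that a heat-labile SV40 large-T antigen keeps dividing at 33 °C. Before treatment it was held for 12 days at 37 °C, where the antigen is inactive. Every library came from this line, carrying a doxycycline-inducible construct, pCW-eGFP (the control line) or pCW-(FLAG-NLS-)YAP5SA. Each line was left untreated or given doxycycline at 0.1 µg/ml for 24 hours. This gave 4 groups of 3 libraries, the GFP line without and with the drug and the YAP5SA line without it (called uninduced) and with it (called induced). Labels do not say whether the 3 libraries of a group are separate cultures or whether a line is 1 clone. The p-values therefore measure only the spread between these libraries, which may be technical, and a difference between the lines cannot be told apart from one that arose when each line was made.

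In the Hippo pathway, the kinases MST1 (gene STK4) and MST2 (gene STK3), held together by the scaffold SAV1, activate the kinases LATS1 and LATS2 with the help of the MOB1 adaptors. Active LATS phosphorylates the transcriptional co-activators YAP and TAZ on serines, which keeps them out of the nucleus and marks them for breakdown. TAO kinases act on MST, and kinases of the MAP4K family can act on LATS in parallel to MST. YAP5SA has LATS target serines replaced by alanine and so escapes this control. LATS2 is also known as a transcriptional target of YAP, which closes a negative feedback loop.

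The promoters of the LATS and MOB1 genes are shown because, in each of these paralog pairs, 1 gene rose on induction and the other did not pass the test. STK3 and STK4 differed in the same way but are not shown, because no promoter of STK3 was in the sequences used. Each run is the part of the 250 bases before a RefSeq start (GRCh38.p14) that lies outside the gene as annotated in GENCODE 29, written 5′ to 3′ on the gene's own strand.
LATS2, chr13:21061587-21061836, minus strand: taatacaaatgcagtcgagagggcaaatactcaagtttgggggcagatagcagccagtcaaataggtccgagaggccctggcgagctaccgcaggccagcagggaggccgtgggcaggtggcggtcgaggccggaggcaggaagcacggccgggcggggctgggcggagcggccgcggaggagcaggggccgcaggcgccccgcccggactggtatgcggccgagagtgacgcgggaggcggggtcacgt
LATS1, chr6:149718257-149718351, minus strand: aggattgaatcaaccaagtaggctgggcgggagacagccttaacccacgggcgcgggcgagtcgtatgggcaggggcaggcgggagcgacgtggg
MOB1B, chr4:70902119-70902325, plus strand: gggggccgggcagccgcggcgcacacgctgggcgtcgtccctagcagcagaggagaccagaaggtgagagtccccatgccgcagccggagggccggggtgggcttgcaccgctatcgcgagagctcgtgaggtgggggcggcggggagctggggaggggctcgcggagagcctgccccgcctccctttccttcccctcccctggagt
MOB1A, chr2:74178899-74179129, minus strand: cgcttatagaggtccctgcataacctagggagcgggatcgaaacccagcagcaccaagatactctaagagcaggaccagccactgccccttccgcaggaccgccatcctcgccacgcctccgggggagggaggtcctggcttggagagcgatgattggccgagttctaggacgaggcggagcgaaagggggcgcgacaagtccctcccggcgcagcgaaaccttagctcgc
No letter is in capitals because neither motif searched was present in these runs. The motifs were GGAATG (reverse complement CATTCC), the core recognised by the TEAD factors through which YAP acts, and TGACTCA (reverse complement TGAGTCA), the AP-1 site, which do not overlap each other. Of 35116 RefSeq promoters of the same 250 bases, 11.89% held GGAATG on either strand and 4.2% held TGACTCA. The table held 14 windows for 9 of the genes. GGAATG was in 1 of them, at an alternative start of TAOK3, and TGACTCA in 0. These letters say nothing about sites outside the windows. The windows of the starts shown held 69.6% GC for LATS2, 70.0% for LATS1, 72.8% for MOB1B and 62.4% for MOB1A, against a median of 58.0% over all promoters. A window at another start, inside the gene, held 29.2% GC for LATS1 and 65.6% for MOB1A.

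Totals were 24477592 to 25993413 counts per library, and the genes described here held 6740 (STK3) to 124375 (MAP4K4) reads over the 12 libraries. Levels are CPM (reads of a gene relative to the library's total, on a fixed scale) adjusted by TMM, a factor that corrects for composition. A gene was called where edgeR's p, adjusted by Benjamini-Hochberg over the 17470 genes tested, was below 0.05. The row of YAP1, which can hold endogenous and transgene reads, was at 173, 332 and 321 CPM in GFP without doxycycline and at 177, 326 and 312 CPM with it. It was at 221, 375 and 345 CPM in uninduced and at 1760, 1670 and 970 CPM in induced YAP5SA. YAP1 was thus raised in all 3 induced libraries, least in replicate 3, and lowest in replicate 1 of the other groups. Of 12 podocyte markers 9 were tested, and their summed level was 3250 to 3530 CPM over the libraries. The slit diaphragm gene NPHS1, which defines podocytes, was near 0, with 18 reads in the 12 libraries. Summed markers of tubule (at most 3.49 CPM), endothelial (at most 1.66 CPM) and leukocyte cells (at most 2.57 CPM) were low. Fewer cells of a kind and less RNA per cell cannot be told apart in such bulk libraries.

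With doxycycline in the YAP5SA line (induction), 4 of the 10 genes were called higher, LATS2, SAV1, MOB1B and STK3, and 1 lower, MAP4K4. LATS2 rose by 1.79-fold, SAV1 by 1.36-fold, MOB1B by 1.26-fold and STK3 by 1.19-fold, and MAP4K4 fell to 0.816 of its uninduced level. Over all genes tested, 19.1% were called in this comparison, 9.83% higher and 9.28% lower. The median log2 fold change was 0.112 over the 10 genes and -0.003 over all genes. For doxycycline in the GFP line 0 of the 10 genes were called (0% of all genes called by edgeR). There 0 of the 10 had an unadjusted p below 0.05, and DESeq2 and limma-voom also called 0 of them. These fits took no account of the replicate number. With that number as a block in the 6 GFP libraries, edgeR called 0 of the 10 and 20 of all genes. When edgeR tested the difference between the effects of doxycycline in the lines, LATS2, MOB1B and MAP4K4 passed. SAV1 (adjusted p = 0.152) and STK3 (0.254) did not.

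**Figure D1:**
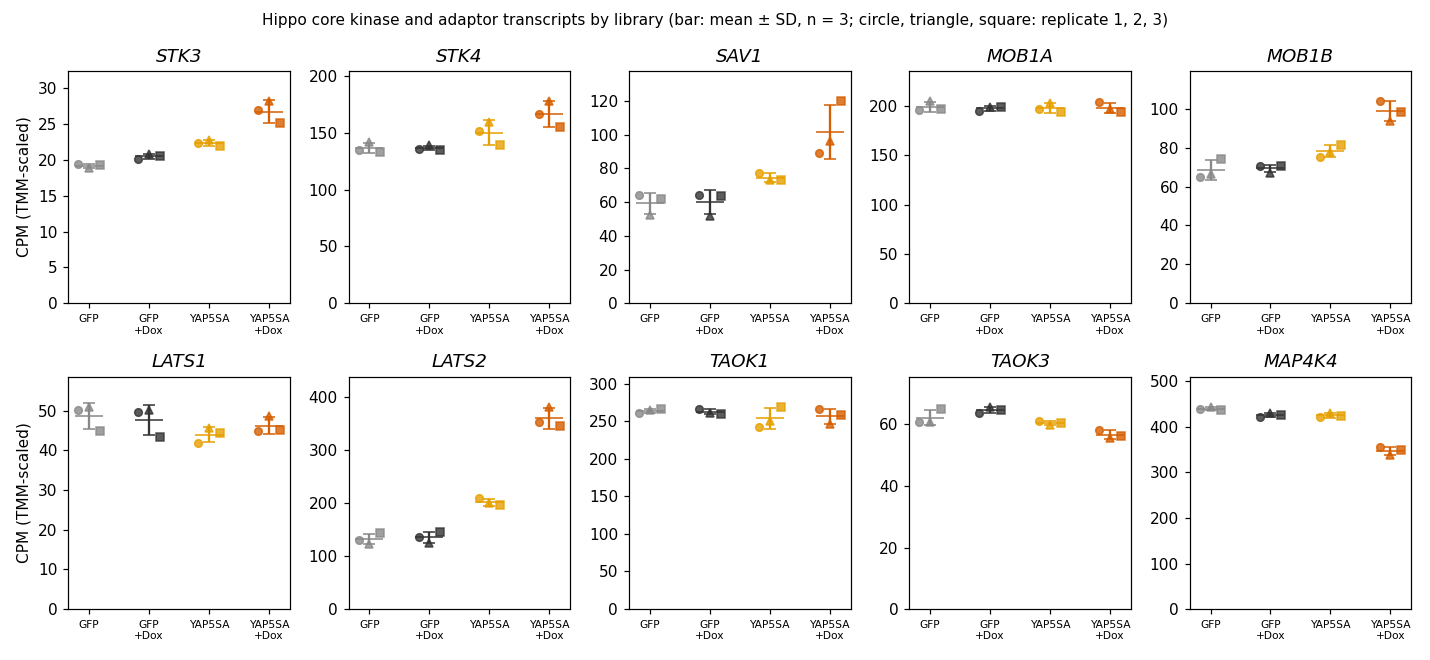
TMM-scaled CPM (vertical axis, from 0) of each gene in the 12 libraries, by group; points are libraries and bars the mean ± SD of 3. LATS2 steps up from the GFP groups (123 to 146 CPM) to uninduced (196 to 209) and induced YAP5SA (345 to 381), and MAP4K4 is lowest in the induced libraries (338 to 355).

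The LATS kinases phosphorylate YAP directly, and their 2 genes behaved differently. LATS2 (ENSG00000150457, GRCh38 chromosome 13, 20973032 to 21061547, minus strand) was at 130, 123 and 143 CPM in GFP without doxycycline and at 135, 124 and 146 CPM with it. It was at 209, 199 and 196 CPM in uninduced and at 352, 381 and 345 CPM in induced YAP5SA. The 3 ranges GFP, uninduced and induced did not overlap, while those of GFP with and without doxycycline did. On induction LATS2 rose by 0.84 ± 0.07 on the log2 scale (SE, edgeR adjusted p = 7.02e-06), and 170 of the 1717 genes that rose did so by more. The induced library with the least YAP1 (replicate 3) had 345 CPM of LATS2, near the 352 CPM of replicate 1.

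LATS2 was already higher in the uninduced YAP5SA line than in the GFP line, by 0.61 ± 0.07 (adjusted p = 0.000228). YAP1 did not pass there (0.19 ± 0.36), with a wide 95% interval of -0.64 to 1.01 that does not exclude a rise. By replicate number YAP1 was higher in uninduced YAP5SA each time, at 221 against 173, 375 against 332 and 345 against 321 CPM. Libraries of the different lines were not shown to be paired by number. Between the lines with doxycycline the difference in LATS2 was 1.41 ± 0.07 (adjusted p = 2.05e-08). In the GFP line the effect of doxycycline was 0.03 ± 0.07 (95% interval -0.11 to 0.18). The effect of doxycycline was 0.80 ± 0.09 larger in the YAP5SA than in the GFP line (adjusted p = 0.000533). LATS2 thus differed between the lines in a first step without doxycycline and in a further step with it, and every one of these calls held under each alternative tried.

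LATS1 (ENSG00000131023, chromosome 6, 149658153 to 149718256, minus strand) was at 50.2, 51.0 and 44.9 CPM in GFP without doxycycline and at 49.6, 50.1 and 43.4 CPM with it. It was at 41.9, 45.8 and 44.4 CPM in uninduced and at 44.9, 48.8 and 45.2 CPM in induced YAP5SA. These ranges overlapped in every pair of groups compared. The log2 fold change of LATS1 on induction was 0.07 ± 0.07 (95% interval -0.07 to 0.22), and it passed in no comparison. Its 95% interval on induction lay below that of LATS2 (0.69 to 0.98).

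The change in balance between the LATS genes can be read inside each library, where scaling plays no part. LATS2 reads were 2.73 ± 0.405 times those of LATS1 in GFP without doxycycline (SD, n = 3), 2.85 ± 0.458 times with it, 4.58 ± 0.360 times in uninduced and 7.77 ± 0.121 times in induced YAP5SA. The libraries of these last 2 groups did not overlap each other or the GFP groups. Corrected for exon length, the ratio went from 4.22 in GFP without doxycycline to 12.0 in induced YAP5SA. The exact two-sided permutation test of 3 against 3 cannot give less than p = 0.10. The exact test gave p = 0.10 for induction and for both comparisons of the lines, with an adjusted p of 0.13 by exact permutation over 12 ratio comparisons. For doxycycline in the GFP line the exact p, which takes no account of the replicate numbers, was 0.60. Between GFP libraries of the same number the ratio of reads was higher with doxycycline in 3 of 3, at 2.73 against 2.60, 2.47 against 2.40 and 3.36 against 3.18.

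**Figure D2:**
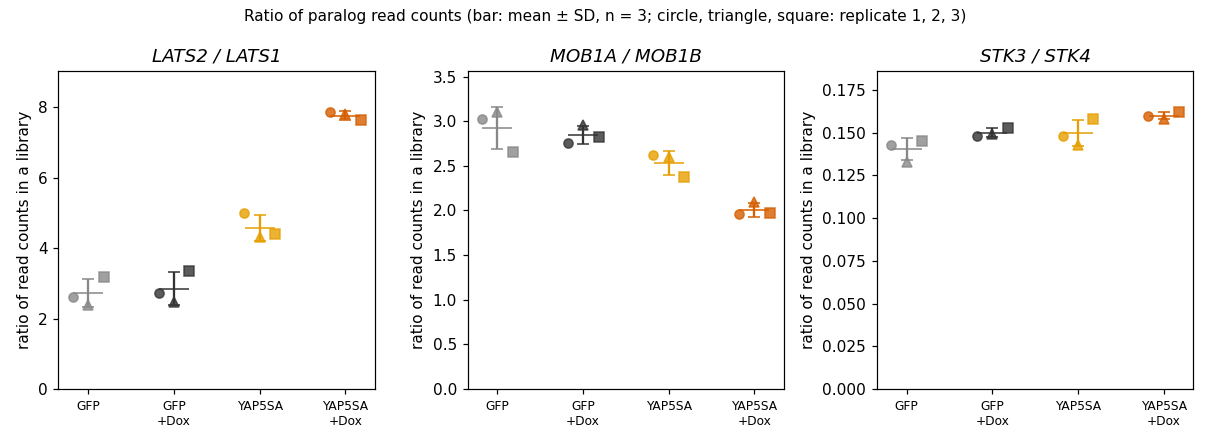
Ratio of read counts of 2 paralogs inside each library (vertical axis, from 0) by group; points are libraries and bars the mean ± SD of 3. The LATS2 to LATS1 ratio is between 7.63 and 7.86 in the induced libraries against 2.40 to 3.36 in the GFP libraries, and the MOB1A to MOB1B ratio falls to between 1.96 and 2.10.

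Among the MST kinases and their scaffold, STK3 and SAV1 rose on induction and STK4 did not pass. STK3, which encodes MST2 (ENSG00000104375, chromosome 8, 98371228 to 98942827, minus strand), was at 19.4, 18.9 and 19.3 CPM in GFP without doxycycline and at 20.1, 20.8 and 20.6 CPM with it. It was at 22.4, 22.8 and 22.0 CPM in uninduced and at 26.9, 28.2 and 25.1 CPM in induced YAP5SA. No 2 of the 4 groups overlapped, in a gene whose libraries differed by little within a group. STK3 rose on induction by 0.25 ± 0.05 (adjusted p = 0.00483). In the GFP line its log2 fold change with doxycycline was 0.09 ± 0.05, and the difference between these effects (0.16 ± 0.08, adjusted p = 0.254) did not pass. The rise of STK3 was thus not shown to differ between the lines.

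STK3 was also higher in the uninduced YAP5SA line than in the GFP line, by 0.22 ± 0.05 (adjusted p = 0.0227). That call ended with no filter on low counts (adjusted p = 0.0941) and without GFP replicate 1 (0.0732) or 2 (0.0905) or uninduced replicate 1 (0.0846) or 2 (0.0703), with log2 differences of 0.21 to 0.23. Between the lines with doxycycline STK3 was higher in YAP5SA by 0.38 ± 0.05 (adjusted p = 0.000103).

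STK4, which encodes MST1 (ENSG00000101109, chromosome 20, 44966474 to 45079959, plus strand), was at 135, 142 and 133 CPM in GFP without doxycycline and at 136, 139 and 135 CPM with it. It was at 152, 160 and 139 CPM in uninduced and at 167, 178 and 155 CPM in induced YAP5SA. Uninduced and induced libraries overlapped. The log2 fold change on induction was 0.15 ± 0.06 (adjusted p = 0.0804). It passed with no filter on low counts (0.0478) and without uninduced replicate 2 (0.0378) or induced replicate 3 (0.0251). STK4 was higher in the YAP5SA than in the GFP line, both with doxycycline, by 0.29 ± 0.06 (adjusted p = 0.00144), with no overlap of libraries.

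The STK3 to STK4 ratio of reads moved little. It was 0.140 ± 0.00643 (SD, n = 3) in GFP without doxycycline, 0.150 ± 0.00265 with it, 0.150 ± 0.00764 in uninduced and 0.160 ± 0.00200 in induced YAP5SA. The log2 difference of 0.10 on induction was matched by 0.09 for doxycycline in the GFP line. In both comparisons the exact permutation test gave p = 0.10, the smallest possible (adjusted p = 0.13).

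SAV1, the scaffold that joins MST to LATS (ENSG00000151748, chromosome 14, 50632058 to 50668331, minus strand), was at 64.2, 52.4 and 61.7 CPM in GFP without doxycycline and at 64.4, 51.7 and 63.6 CPM with it. It was at 77.6, 72.9 and 73.2 CPM in uninduced and at 89.3, 96.4 and 120 CPM in induced YAP5SA. Replicate 2 was the low library in both GFP groups, and the induced libraries were the most spread, with replicate 3 the highest. SAV1 rose by 0.45 ± 0.12 on induction (adjusted p = 0.0186). That call ended with no filter on low counts (adjusted p = 0.0939) and without uninduced replicate 2 (0.0619) or 3 (0.0609), with a log2 fold change of 0.44 or 0.45 in each.

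In the GFP line the effect of doxycycline on SAV1 was 0.01 ± 0.12, and the difference between the effects, 0.44 ± 0.16, did not pass (adjusted p = 0.152). Without doxycycline SAV1 was 0.33 ± 0.12 higher in the YAP5SA line (adjusted p = 0.113), which did not pass, though it did in a fit of those groups alone (0.0275) and without induced replicate 3 (0.0438). It was 0.76 ± 0.12 higher with doxycycline in both lines (adjusted p = 0.000358). Exons of ATL1 on the opposite strand cover 14.92% of the SAV1 exons. The strand setting of the counting is not given in the sources used here, so reads there cannot be assigned to either gene with certainty. The ATL1 row held 4135 reads over the 12 libraries against 22440 for SAV1.

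Of the MOB1 adaptors, which bind LATS and release its activity, MOB1B rose and MOB1A stayed at about the same level. MOB1B (ENSG00000173542, chromosome 4, 70902326 to 71022449, plus strand) was at 64.9, 66.3 and 74.2 CPM in GFP without doxycycline and at 70.5, 67.2 and 70.4 CPM with it. It was at 75.1, 78.0 and 81.3 CPM in uninduced and at 104, 93.8 and 98.6 CPM in induced YAP5SA. The induced libraries lay above all others. MOB1B rose on induction by 0.34 ± 0.06 (adjusted p = 0.00105), and in the GFP line its fold change was 0.02 ± 0.06.

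The difference between those effects on MOB1B, 0.32 ± 0.08, passed (adjusted p = 0.0301). It ended without GFP replicate 3 (0.0569), GFP with doxycycline replicate 1 (0.0556) or 2 (0.0690), uninduced replicate 1 (0.0717) or 2 (0.0518) or induced replicate 1 (0.0662), with differences of 0.26 to 0.34. Without doxycycline MOB1B was 0.19 ± 0.06 higher in the YAP5SA line (adjusted p = 0.0562). It passed there with DESeq2 (0.0465), with either other filter on low counts (0.0488 with none and 0.0489 with the stricter) and without GFP replicate 3 (0.0145) or induced replicate 2 (0.0407). MOB1B was 0.51 ± 0.06 higher with doxycycline in both lines (adjusted p = 1.54e-05).

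MOB1A (ENSG00000114978, chromosome 2, 74152528 to 74178898, minus strand) was at 194 to 205 CPM in all 12 libraries, with group means of 197 to 199 CPM. Its log2 fold change on induction was 0.00 ± 0.04 (95% interval -0.07 to 0.08), and it passed in no comparison. MOB1A reads were 2.92 ± 0.240 times those of MOB1B in GFP without doxycycline (SD, n = 3), 2.85 ± 0.103 times with it, 2.53 ± 0.133 times in uninduced and 2.01 ± 0.0781 times in induced YAP5SA. The induced libraries did not overlap the others, and the exact permutation p was 0.10 for induction, the smallest possible. The annotated processed copies MOB1AP1 and MOB1AP2 had 0 reads.

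Of the upstream kinases, MAP4K4 fell on induction and TAOK1 and TAOK3 did not pass. MAP4K4 (ENSG00000071054, chromosome 2, 101696850 to 101894689, plus strand), a MAP4K family kinase that can phosphorylate LATS, was at 439, 444 and 438 CPM in GFP without doxycycline and at 422, 430 and 427 CPM with it. It was at 421, 431 and 425 CPM in uninduced and at 355, 338 and 350 CPM in induced YAP5SA. The 3 induced libraries lay below the other 9, which spanned only 421 to 444 CPM. MAP4K4 fell by 0.29 ± 0.03 on the log2 scale on induction (adjusted p = 5.18e-05).

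The effect of doxycycline on MAP4K4 was -0.05 ± 0.03 in the GFP line and did not pass. The GFP libraries with doxycycline (422 to 430 CPM) nevertheless lay below those without it (438 to 444 CPM). The difference between the effects was -0.25 ± 0.05 (adjusted p = 0.00592). Without doxycycline the lines differed by -0.05 ± 0.03 (adjusted p = 0.423), which did not pass although the libraries did not overlap. Between the lines with doxycycline MAP4K4 was lower in YAP5SA (log2 difference -0.29 ± 0.03, adjusted p = 1.3e-05). Each of these calls held under every alternative tried.

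TAOK3 (ENSG00000135090, chromosome 12, 118149801 to 118372945, minus strand), a TAO kinase that acts on MST, was at 60.9, 60.7 and 65.1 CPM in GFP without doxycycline and at 63.6, 65.7 and 64.6 CPM with it. It was at 61.0, 59.9 and 60.5 CPM in uninduced and at 58.2, 55.6 and 56.2 CPM in induced YAP5SA. The induced libraries were below the uninduced ones, by a log2 fold change of -0.09 ± 0.04 that did not pass (adjusted p = 0.134). Between the lines with doxycycline TAOK3 was lower in YAP5SA (log2 difference -0.19 ± 0.04, adjusted p = 0.00258). TAOK1 (ENSG00000160551, chromosome 17, 29390464 to 29551904, plus strand), its paralog, was at 242 to 269 CPM in all 12 libraries. It passed in no comparison, with 0.02 ± 0.04 on induction (95% interval -0.08 to 0.11).

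**Figure D3:**
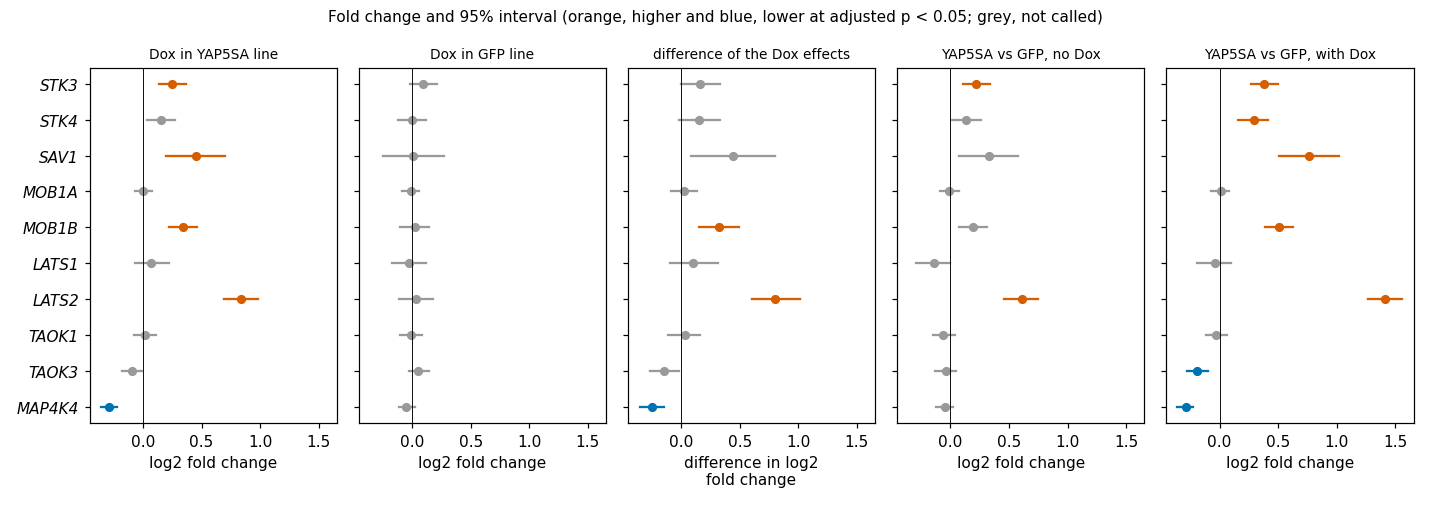
Log2 fold change (horizontal axes) with its 95% interval for the 10 genes in the 5 comparisons; orange and blue mark genes called higher and lower by edgeR, grey those not called. LATS2 is the farthest from 0 wherever YAP5SA libraries are compared, up to 1.41 between the lines with doxycycline, and the values for doxycycline in the GFP line lie between -0.05 and 0.09.

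Taking the comparisons in turn, the difference between the effects of doxycycline was called for 3 of the 10 genes: more positive in the YAP5SA line for LATS2 and MOB1B and more negative for MAP4K4. Over all genes 6.88% were called, 3.60% more positive and 3.28% more negative. Without doxycycline 2 of the 10 were higher in the YAP5SA line (LATS2 and STK3) and 0 were lower, against 6.04% and 2.61% of all genes (8.65% in either direction). That count of 2 was 1 without any single one of GFP replicates 1 and 2 and uninduced replicates 1 and 2, each of which ended the call of STK3.

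With doxycycline in both lines 5 of the 10 were higher (LATS2, SAV1, MOB1B, STK3 and STK4) and 2 lower (MAP4K4 and TAOK3), against 19.9% and 18.4% of all genes (38.3% in either direction). The comparisons share libraries: that of the lines with doxycycline uses the induced libraries of the first comparison, and that of the lines without it uses the uninduced ones. Summed parietal epithelial markers were 4070 to 4210 CPM in the GFP libraries and 4180 to 4570 CPM in the YAP5SA libraries with 7 of 7 markers tested, and summed mesangial and fibroblast markers 93.6 to 134 and 126 to 168 CPM, with 3 of 4 tested. Within each sum the markers did not move together. From GFP to uninduced YAP5SA mean KRT8 went from 890 to 1220 CPM and KRT18 from 281 to 542 CPM. PAX8 went from 564 to 438 CPM and CD44 from 1060 to 937 CPM. PDGFRB went from 5.91 to 12.9 CPM and DCN from 1.8 to 0.621 CPM. The part of these markers in the differences between the lines was not tested.

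Apart from the ratios of paralog reads, levels of different genes were compared per kilobase of annotated exon. In GFP without doxycycline MAP4K4 was highest at 36.8 ± 0.278 CPM per kb (SD, n = 3), before MOB1A (31.0 ± 0.802) and LATS2 (23.6 ± 1.84). TAOK1 and STK4 followed with overlapping libraries (15.6 and 15.1 CPM per kb), then SAV1 (10.6) and MOB1B (7.78). TAOK3 and LATS1 again overlapped (5.89 and 5.63), and STK3 was lowest at 1.52 CPM per kb. GFP with doxycycline had the same order, with TAOK3 (6.11) and LATS1 (5.52) not overlapping there.

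In uninduced YAP5SA LATS2 (36.1 ± 1.22 CPM per kb) and MAP4K4 (35.6 ± 0.418) overlapped at the top. In induced YAP5SA LATS2 stood first at 64.4 ± 3.43 CPM per kb, ahead of MOB1A (30.8 ± 0.802) and MAP4K4 (29.1 ± 0.751). There STK4 and SAV1 overlapped at 18.4 and 18.1 CPM per kb, followed by TAOK1 (15.1) and MOB1B (11.2). TAOK3 and LATS1 overlapped at 5.36 and 5.35, and STK3 was lowest at 2.12. These levels depend on the length used. With the longest annotated transcript LATS2 was behind MAP4K4 and MOB1A in uninduced (36.5 CPM per kb, against 55.8 and 40.5) and first in induced YAP5SA (65.2), where MAP4K4 (45.5) was above MOB1A (40.6), and STK3 was lowest in all 4 groups. By that length TAOK3 was at 14.2 CPM per kb in GFP without doxycycline, above MOB1B (9.83) and LATS1 (6.48), and at 12.9 against 6.16 for LATS1 in induced YAP5SA. SAV1 (33.2) was then above STK4 (26.3) in induced YAP5SA.

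**Figure D4:**
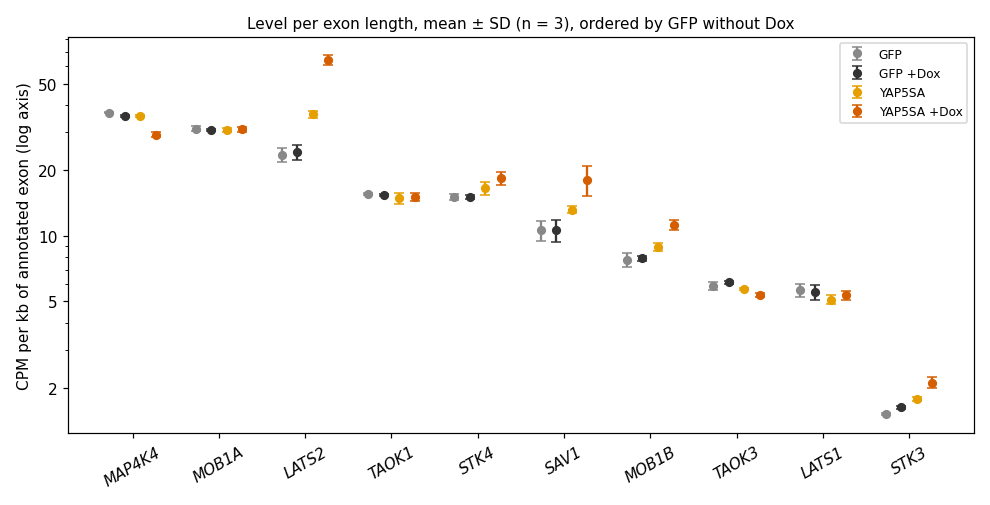
CPM per kb of annotated exon (log axis) for each gene, mean ± SD of 3 libraries, in the order of GFP without doxycycline. LATS2 moves from 23.6 in that group to 64.4 in induced YAP5SA, above the other 9 genes, and STK3 is lowest in each group.

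The pattern of LATS2 over the 12 libraries was set beside that of 11399 other genes with a mean of at least 5 CPM, by the root mean square distance of centred log2 CPM. The 5 nearest genes were AMIGO1 (distance 0.070), DDAH1 (0.074), SH3RF1 (0.078), NUAK1 (0.080) and PPME1 (0.084), against a median distance of 0.590. DDAH1, which encodes an enzyme that breaks down methylated arginines, went from 172 ± 14.8 CPM in GFP without doxycycline to 270 ± 12.7 in uninduced and 433 ± 40.4 CPM in induced YAP5SA (SD, n = 3). NUAK1, which encodes an AMPK-related kinase, went from 103 ± 4.09 to 162 ± 13.2 and 271 ± 32.3 CPM. These genes were found by their likeness to LATS2, so their levels are a description.

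Other genes of the pathway were taken from 7 lists by role, whose counts on induction stand against 9.83% of all genes called higher and 9.28% lower. Among 7 other MAP4K, TAO and related kinases, 1 rose and 2 fell on induction, with a list median of -0.08. MAP4K5 rose by 0.25 ± 0.04 (adjusted p = 0.000898) while TNIK, which is related to MAP4K4, and TAOK2 fell by 0.30 ± 0.04 and 0.24 ± 0.04 on the log2 scale. Among 10 relatives of MST, of the NDR kinases and of MOB1, 3 rose and 1 fell (median -0.07). MOB3B rose by 1.14 ± 0.19, from 11.4 ± 1.70 to 25.2 ± 2.34 CPM (SD, n = 3), and MOB4, a STRIPAK subunit that shares exons with a read-through gene, by 0.30 ± 0.05. MOB3A fell by 0.21 ± 0.05, a call that ended without uninduced (adjusted p = 0.0648) or induced replicate 1 (0.0597).

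Among 14 genes of STRIPAK, the phosphatase complex that removes the activating phosphate from MST, 4 rose and 0 fell (median 0.04). SLMAP, the subunit that docks on MST, rose by 0.26 ± 0.04 and CTTNBP2NL by 0.31 ± 0.06. Of 14 tested scaffolds and activators of MST and LATS, 7 rose and 0 fell (median 0.23). RASSF5, which binds MST, rose by 1.05 ± 0.12, from 5.70 ± 0.743 to 11.8 ± 1.44 CPM. WWC1, a LATS-binding scaffold also named KIBRA, rose by 0.53 ± 0.04 and AMOTL2, an angiomotin that binds YAP, by 0.74 ± 0.08.

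Of 8 genes that restrain LATS, 4 rose, 0 fell and 4 did not pass (median 0.17). The ubiquitin ligase gene NEDD4L rose by 0.56 ± 0.05, and AJUBA and WTIP, which encode LIM proteins that bind LATS, by 0.35 ± 0.04 and 0.45 ± 0.06. Of 11 genes for proteins that read or follow YAP phosphorylation, 0 rose and 4 fell (median -0.04). The 14-3-3 genes YWHAQ and YWHAH fell by 0.16 ± 0.03 and 0.15 ± 0.04 and the casein kinase gene CSNK1E by 0.20 ± 0.05. The last 2 calls each ended without uninduced replicate 1 (YWHAH 0.0508, CSNK1E 0.0891). That of YWHAH also ended without uninduced replicate 2 (0.0550), and that of CSNK1E without induced replicate 1 (0.0787) or 2 (0.0547). Of 6 effectors, YAP1 among them, 4 rose and 2 fell. TEAD1 rose by 0.62 ± 0.04 and TEAD4 by 0.45 ± 0.07, while TEAD2 fell by 0.75 ± 0.11.

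In the GFP line 0 genes of these 7 lists were called. Without doxycycline the scaffolds (3 of 14), the genes that restrain LATS (3 of 8) and the effectors (2 of 6) had members higher in the YAP5SA line and 0 lower, against 6.04% and 2.61% of all genes. Of the 7 related kinases 1 was higher, MAP4K5 (0.16 ± 0.04), and 1 lower, TNIK (-0.17 ± 0.04, adjusted p = 0.0153). The call of TNIK ended without GFP replicate 2 (0.0842) or uninduced replicate 1 (0.0832). That of MAP4K5 ended with upper-quartile scaling (0.0611), with no filter (0.0607), and without any 1 of GFP replicates 1, 2 and 3 and uninduced replicates 1 and 2 (0.0578 to 0.120). In that comparison WTIP was higher by 0.49 ± 0.06, AMOTL2 by 0.45 ± 0.08, AJUBA by 0.18 ± 0.04 and TEAD1 by 0.30 ± 0.04. MOB3B was higher by 1.25 ± 0.21, at 11.4 CPM against 4.81 CPM. STRIPAK had 0 of 14 and the genes that follow YAP phosphorylation 0 of 11 called there.

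**Figure D5:**
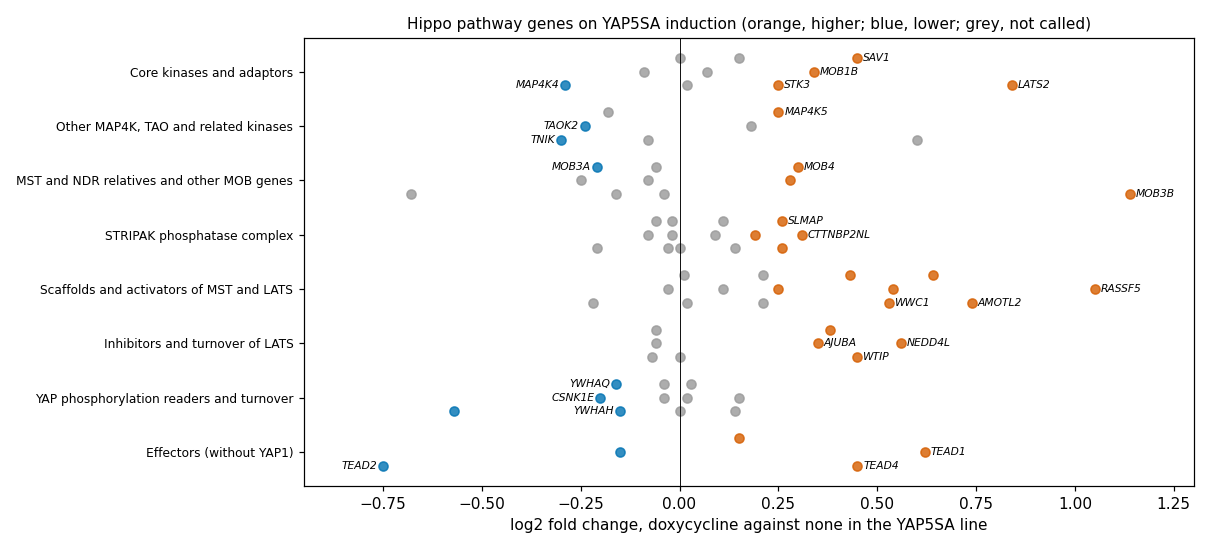
Log2 fold change on induction of YAP5SA (horizontal axis) for the 10 genes and 7 lists of other pathway genes, 1 point a gene; orange was called higher, blue lower, grey not called. The heights of points within a list have no meaning and YAP1 is left out. Scaffolds, STRIPAK genes and genes that restrain LATS have called genes on the right only, the readers of YAP phosphorylation on the left only.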

How the data were processed

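The authors deposited whole-number counts of reads per gene in 12 libraries (mRNA-Seq kit, 1000 ng of total RNA, per the labels' protocols). The tools named in the submitters' processing notes are featureCounts, Subread, DRAGEN, DESeq2 and limma, and the build is GRCh38 (hg38). Strandedness and the tools' versions and roles were not given in the sources used here. Identifiers were matched to symbols for 62639 of 62656 genes, and positions and exon lengths came from GENCODE 29 on GRCh38 (58220 matched).

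Genes passing filterByExpr (17470) were scaled by TMM and fitted with edgeR 4.0.16 (R 4.3.3) in a robust quasi-likelihood model over 12 libraries with 8 residual degrees of freedom, checked first on simulated data. The biological coefficient of variation was 7.48%. Paralog ratios were compared by exact permutation. The alternatives tried were upper-quartile or RLE scaling, no count filter or one of at least 5 CPM in 3 libraries, DESeq2 1.42.0, limma-voom 3.58.1 and a fit of the compared groups alone. Others were library sizes without YAP1, a block for the replicate number, a fit without each library in turn, and the longest transcript as length. All 10 genes are named in every comparison, and of each other list up to 3 genes with the smallest p among those called on induction; 1 gene that the rule names and 1 marker gene are not reported here. Genes and lists were chosen with earlier results of these data known.

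Libraries with the same number had deviations from the group mean that correlated across genes at 0.79, 0.81 and 0.80 between the GFP groups, which met the rule for pairing, but the values printed come from the fit without a block, with the block as an alternative. Between the YAP5SA groups they correlated at 0.05, 0.66 and 0.59, and between the lines some were negative, which did not meet it (the rule was above 0.1 for every number).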

Additional observations from a re-analysis of the deposited data

Results flagged for a closer look

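For 3 of the core genes the response to doxycycline differed between the lines when edgeR tested that difference itself. Each difference is that of the YAP5SA minus the GFP line. In log2 fold change it was 0.80 for LATS2, 0.32 for MOB1B and -0.25 for MAP4K4. It also differed for genes of the other lists. It was 0.26 for MAP4K5 and -0.27 for TNIK among the related kinases, and 1.26 for MOB3B and 0.27 for MOB4 among the MOB relatives. The STRIPAK gene SLMAP (0.27) passed as well. Among scaffolds and genes that restrain LATS, the differences were 0.52 for WWC1, 0.99 for RASSF5, 0.73 for AMOTL2, 0.32 for AJUBA, 0.48 for WTIP and 0.52 for NEDD4L. The TEAD genes gave 0.62 (TEAD1), -0.74 (TEAD2) and 0.58 (TEAD4). Other list genes named for their calls on induction did not pass this edgeR test in the main fit. These were TAOK2 (adjusted p = 0.0573), MOB3A (0.296), CTTNBP2NL (0.0933), YWHAQ (0.0817), YWHAH (0.206) and CSNK1E (0.122). Among the genes that passed, the call of the core gene MOB1B ended in 6 of 12 fits that left out 1 library. It also ended in 6 such fits for MOB3B, in 9 for MOB4 and in 1 for MAP4K5 (without GFP replicate 1, adjusted p = 0.0505).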

How the results depend on the processing

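The calls of LATS2 and MAP4K4 in each comparison kept their direction and their side of the threshold under every alternative, with LATS2 at 0.80 to 0.87 and MAP4K4 at -0.30 to -0.27 on induction. The number of core genes called on induction was 4 to 6. With no filter on low counts it was again 5, with STK4 in place of SAV1. The number called without doxycycline between the lines (2) ranged from 1 to 3 when 1 library was left out. It was 4 with the replicate block over 12 libraries, which added MOB1B (0.19, adjusted p = 0.00937) and STK4 (0.13, adjusted p = 0.017). The block added STK4 on induction (0.15, adjusted p = 0.00397) and, in the 6 YAP5SA libraries alone, ended the call of SAV1 (0.44, adjusted p = 0.0541). The block changed no call of a core gene for doxycycline in the GFP line, whose libraries met the rule for pairing. Over all genes the block over 12 libraries raised the calls from 3338 to 4878 on induction, from 1202 to 2418 for the interaction and from 1512 to 2994 between the lines without doxycycline. In the 6 YAP5SA libraries alone the calls on induction were 2497 without the block and 5066 with it. For doxycycline in the GFP line, where edgeR called 0 genes (282 at an unadjusted p below 0.05), it gave 1 over 12 libraries and 20 in the 6 GFP libraries (0 there without the block), DESeq2 gave 1, limma-voom 0 and no filter 3. The interaction count fell to 768, 750 or 781 without GFP replicate 3, GFP with doxycycline replicate 1 or uninduced replicate 1. The count without doxycycline fell to 718, 678 or 607 without GFP replicate 1 or 2 or uninduced replicate 1. Among the other pathway genes, interaction calls ended with no filter for MOB3B (adjusted p = 0.132) and MOB4 (0.112). They also ended in 6 (MOB3B) and 9 (MOB4) of 12 fits that left out 1 library, and for MAP4K5 in 1, without GFP replicate 1 (0.0505). The cause of these changes was not tested. Values with neither call were not given a direction.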

Other observations

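A few other pathway genes moved as far as those named, and were chosen here after their values were seen. WWC2, a paralog of the LATS scaffold gene WWC1, was at 178 ± 13.3 CPM in GFP without doxycycline, 269 ± 7.25 CPM in uninduced and 419 ± 27.5 CPM in induced YAP5SA (SD, n = 3). FAT4, a giant cadherin gene upstream of the pathway, was at 25.8 ± 2.60, 29.1 ± 1.14 and 42.1 ± 0.255 CPM in the same groups. The 14-3-3 gene SFN went from 77.3 ± 13.7 CPM in uninduced to 52.0 ± 7.74 CPM in induced YAP5SA. STK38L, an NDR kinase gene, went from 44.1 ± 11.3 to 27.5 ± 5.54 CPM, which did not pass (log2 fold change -0.68 ± 0.23, edgeR adjusted p = 0.0664).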
